A study of Apera spica-venti with 7 samples.

Results

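Lignin is the phenolic polymer that stiffens and waterproofs plant cell walls, and its monomers come from the phenylpropanoid pathway. Phenylalanine ammonia-lyase opens that pathway by removing ammonia from phenylalanine. Trans-cinnamate 4-monooxygenase acts next, and 4-coumarate ligase then activates the resulting acid with coenzyme A. Cytochrome P450s of the 98A and 84A families and the caffeoyl and caffeic acid O-methyltransferases then decorate the aromatic ring, cinnamyl alcohol dehydrogenase makes the alcohols, and laccases oxidise those alcohols in the cell wall. Chalcone synthase draws on the same activated acid, chalcone isomerase acts on chalcones, and both lead to flavonoids.

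The transcripts named after these enzymes were taken from de novo assemblies of loose silky bentgrass (*Apera spica-venti*), a grass weed of winter cereals. A transcript was a member when the description of its best plant homologue held the name of one of 12 enzyme families and the e-value of the match was at most 0.1. The rule found 415 members among 251792 annotated transcripts of the 7 single assemblies, and 127 among 66641 in the combined assembly. All members came from herbicide susceptible plants, mixed from populations of several Danish sites. Seeds germinated in petri dishes in a climate cabinet were taken at BBCH 05 (radicle out), 07 (coleoptile out of the caryopsis), 08 (coleoptile elongating) and 09 (emergence), and leaf, root and stem came from greenhouse plants at BBCH 34 to 36, when stems elongate. Each condition is represented here by 1 library of pooled RNA from several individuals, with no replicate. The study also made further leaf and root libraries, which were not analysed here. Seeds were kept in a stabilising reagent and organs were frozen in liquid nitrogen. The study also reports that RNA of high quality was hard to extract from germinated seeds. The way of keeping tissue, RNA quality, the growing conditions and the kind of tissue therefore cannot be told apart.

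A number of transcripts here is a number of different assembled sequences. The authors normalised the reads of each library by k-mers and merged like contigs before annotation, so it is not an expression level, and a fragmented gene can count several times. By the study's account more reads remained after that step in root than in any other library and fewest in leaf, and the part of read depth in the counts was not tested. In whole tissue, fewer cells of a type and less RNA per cell cannot be told apart. Counts are therefore also given as a share of the annotated transcripts of the same assembly, of which there were 36287, 39930, 38229 and 40902 at the 4 seed stages and 28412, 38809 and 29223 in leaf, root and stem. Of the marker lists, leaf markers had their highest share in leaf, at 46 transcripts, and seed markers had higher shares in all seed stages than in any organ. Markers of the root overlapped between the groups, and the list taken to mark stem did not mark it. Its share was highest at BBCH 09, at 0.0342%, against 0.0137% in stem. Most of its transcripts were expansins, with 9, 10, 3 and 14 in the seed stages and 2, 11 and 4 in leaf, root and stem, and xylem, cobra and fasciclin-like arabinogalactan found 0 transcripts in any assembly.

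The members made up a similar share of every assembly. They numbered 63, 63, 67 and 68 at BBCH 05, 07, 08 and 09, and 41, 69 and 44 in leaf, root and stem. As a share, the lowest was leaf with 0.144% (95% Wilson interval 0.106 to 0.196%) and the highest was root with 0.178% (0.141 to 0.225%). All 7 intervals overlapped, and they cover counting error only.

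Of the 12 families, 10 had members, and the p-values given below for single families were not adjusted for their number. Phenylalanine ammonia-lyase held 150 of the 415 members, laccases 88, the chalcone enzymes 70 and cinnamyl alcohol dehydrogenase 51. The remaining families were small, with 17 caffeoyl O-methyltransferase, 16 4-coumarate ligase, 13 caffeic acid O-methyltransferase, 7 cytochrome P450 98A1, 2 cytochrome P450 84A1 and 1 dirigent transcript. The names cinnamoyl-CoA reductase and shikimate O-hydroxycinnamoyl transferase found 0 transcripts as spelled in the rule. The deposited descriptions drop the word CoA, and 11 transcripts described as "cinnamoyl- reductase" lay outside the rule for that reason. For the transferase, the combined assembly held 2 transcripts described as hydroxycinnamoyl-coenzyme A shikimate quinate hydroxycinnamoyltransferase, also outside the rule, and the GO term quinate O-hydroxycinnamoyltransferase activity was on 1 or 2 transcripts of every single assembly, none of them a member.

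**Figure D1:**
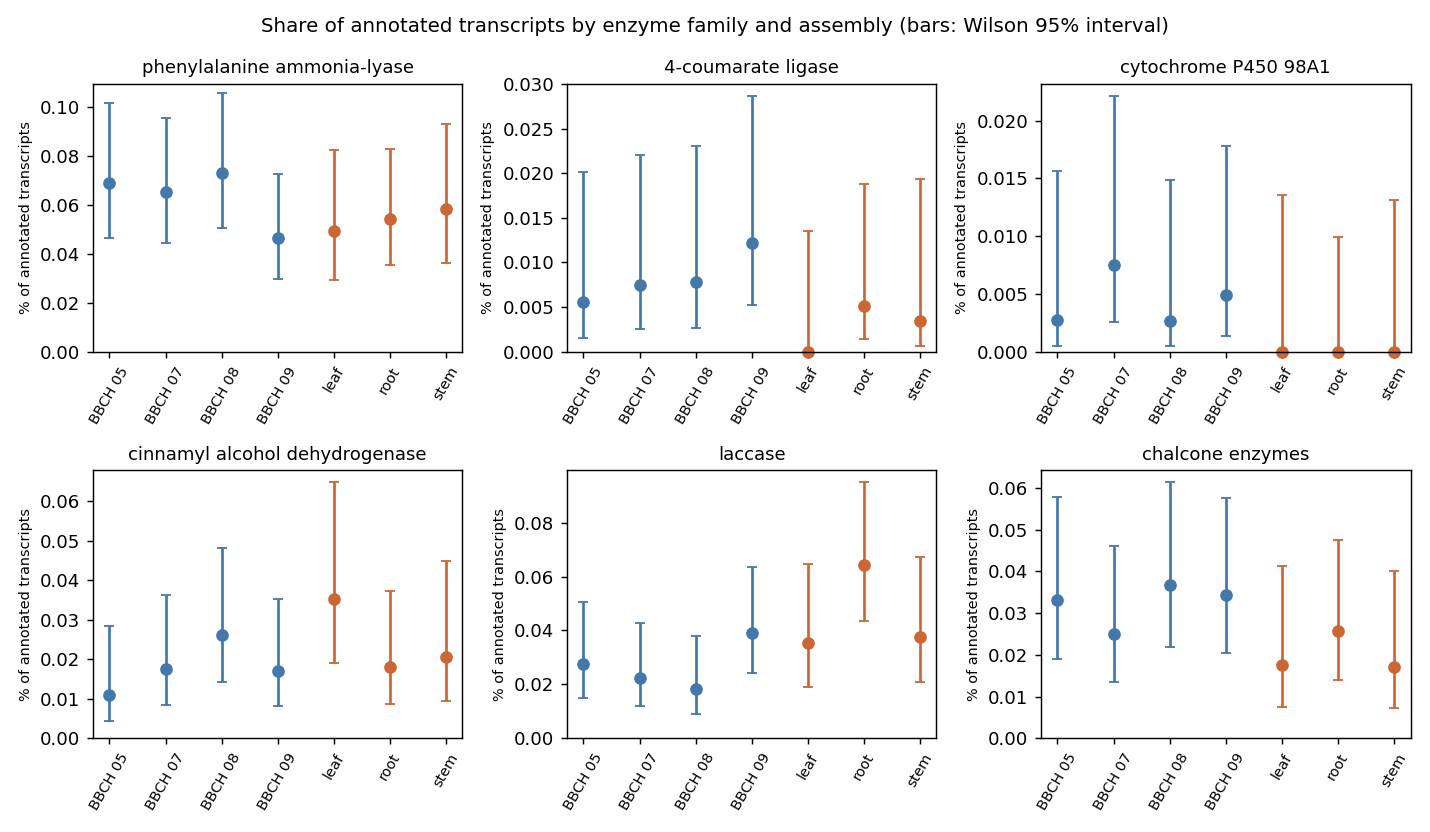
Each panel plots the share of annotated transcripts (y axis, percent) that an enzyme family held in each assembly (x axis). Blue points are seed stages, orange points are organs, and bars are Wilson 95% intervals. Root stands highest among the laccases with 0.0644%, and cytochrome P450 98A1 sits at 0 in leaf, root and stem.

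Phenylalanine ammonia-lyase was the largest family in each of the 7 single assemblies except root. In the combined assembly it was second to the laccases, with 41 transcripts against 43. The share of phenylalanine ammonia-lyase did not separate seeds from organs. It had 25, 26, 28 and 19 transcripts at BBCH 05, 07, 08 and 09, and 14, 21 and 17 in leaf, root and stem. The mean share was 0.0634% over the seed stages and 0.0539% over the organs (exact permutation test over 35 splits of the 7 assemblies, two-sided, p = 0.257), and the groups overlapped because BBCH 09 had the lowest share of all, 0.0465%. Leaving out BBCH 09 removes that overlap by construction (exact permutation p = 0.10, the smallest that 20 splits allow), and the groups overlapped with any other assembly left out.

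The 150 phenylalanine ammonia-lyase transcripts matched 11 proteins. The commonest match was M8ARS1 of *Aegilops tauschii*, a wild relative of wheat, with 7, 8, 8 and 7 transcripts in the seed stages and 5, 11 and 6 in leaf, root and stem. It was the most frequent match of this family in each of the 7 assemblies, and root had the most. M7ZH07 of *Triticum urartu* followed with 6, 4, 5 and 5 transcripts in the seed stages against 2, 2 and 4 in the organs. An entry of the rice genus, A0A0D9W775, was the third protein of the family matched in all 7 assemblies, with 16 transcripts in all.

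A single phenylalanine ammonia-lyase protein was matched in all seed stages and in no organ. R7WDV4 of *Aegilops tauschii* had 4, 4, 2 and 1 transcripts at BBCH 05, 07, 08 and 09 and 0 in leaf, root and stem (exact permutation p = 0.0571). Across all proteins with at least 5 transcripts, 4.37% had every seed stage above every organ and 5.13% the reverse. Of the 33 member proteins of that size, 5 proteins had every seed stage above every organ and 2 proteins showed the reverse.

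A later step, 4-coumarate ligase, had a higher share in every seed stage than in any organ. It had 2, 3, 3 and 5 transcripts at BBCH 05, 07, 08 and 09, and 0, 2 and 1 in leaf, root and stem. The mean share was 0.00827% in seeds and 0.00286% in organs (exact permutation p = 0.0571). A count of 0 in leaf allows a share of up to 0.0106%, above the mean of the seeds. The difference did not outlast a count of distinct proteins, where the groups overlapped (exact permutation p = 0.171), and 2 of its 16 peptides reached 200 amino acids.

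Cytochrome P450 98A1, named for the family that hydroxylates coumaroyl esters on the way to caffeoyl units, was found in seeds only. Its 7 transcripts fell 1, 3, 1 and 2 at BBCH 05, 07, 08 and 09, with 0 in each organ, and all matched M7ZD88 of *Triticum urartu*. The exact permutation p was 0.0286, the smallest that 7 assemblies allow, and the value adjusted by the Benjamini-Hochberg method over 3323 descriptions with at least 5 transcripts was 0.344. Among those descriptions 4.72% had every seed stage above every organ and 5.99% the reverse. Of 14 member descriptions 0 showed the reverse and 2 had the seeds above, "cytochrome p450 98a1" and "4-coumarate-- ligase 5". The latter had 2 transcripts in every seed stage, and 0, 1 and 0 in leaf, root and stem. In the single assemblies all 7 transcripts of cytochrome P450 98A1 were fragments of 184 amino acids or fewer, and the counts of 0 allow shares of 0.0106, 0.00773 and 0.0103% in leaf, root and stem. These limits lie above the highest seed share, 0.00751%, so an absence from the organs was not detectable at this depth.

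The families of ring O-methylation were few and evenly spread. Caffeoyl O-methyltransferase had 5, 2, 2 and 3 transcripts in the seed stages and 1, 2 and 2 in leaf, root and stem (exact permutation p = 0.371). Caffeic acid 3-O-methyltransferase, which methylates ring hydroxyls of later intermediates, had 2, 3, 2 and 1 transcripts in seeds and 1, 2 and 2 in organs (exact permutation p = 1). Their groups overlapped. R7W4N4 of *Aegilops tauschii*, with 10 of the 13 caffeic acid 3-O-methyltransferase transcripts, was matched in all 7 assemblies, whereas M8BKE7 of the same species was matched by 2 transcripts at BBCH 07 and by none elsewhere. The longest peptide of this enzyme, 361 amino acids, was assembled in both leaf and BBCH 09.

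Cytochrome P450 84A1, named for the ferulate 5-hydroxylase family that leads to syringyl units, was found in 2 transcripts, both at BBCH 05. Dirigent protein, a family known to guide the coupling of phenolic radicals, was found in 1 transcript at BBCH 09. Neither number allows a comparison.

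Cinnamyl alcohol dehydrogenase, which makes the monomers of lignin by reducing their aldehydes, had its highest share in leaf. It had 4, 7, 10 and 7 transcripts at BBCH 05, 07, 08 and 09, and 10, 7 and 6 in leaf, root and stem. The leaf share was 0.0352% (0.0191 to 0.0648%) and that of BBCH 05, the lowest, was 0.0110% (0.00429 to 0.0283%), with overlapping intervals. Between seeds and organs the groups overlapped (exact permutation p = 0.314). Its commonest matches were N1R5H6 (15 transcripts, "cinnamyl alcohol dehydrogenase 8c"), M8D2Z0 (11) and R7W9Q5 (10, both "cinnamyl alcohol dehydrogenase 5"), all of *Aegilops tauschii*. Description 5 had 6 of its 23 transcripts in leaf and description 8c had 1 of 15 there. An entry of perennial ryegrass, Q8S412, had 1 transcript in each assembly except BBCH 07, which had 2.

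The laccases, copper oxidases of the cell wall, had their highest share in root. Their transcripts numbered 10, 9, 7 and 16 at BBCH 05, 07, 08 and 09, and 10, 25 and 11 in leaf, root and stem. In root they made up 0.0644% of annotated transcripts (0.0436 to 0.0951%), against 0.0183% (0.00887 to 0.0378%) at BBCH 08, the lowest, and these intervals did not overlap. The mean share was 0.0269% in seeds and 0.0458% in organs (exact permutation p = 0.114), and the groups overlapped because BBCH 09, at 0.0391%, stood above leaf and stem. Leaving out BBCH 09 removes that overlap by construction (exact permutation p = 0.10, the smallest that 20 splits allow), and the groups overlapped with any other assembly left out. Without root the organ minus seed difference fell from 0.0189 to 0.00954 percentage points (exact permutation p = 0.333). Among the 1505 descriptions with at least 10 transcripts, 13.3% had root highest, and of the 8 member descriptions tested the plain "laccase" was the 1 with root highest. No member description of that size separated seeds from organs, where 5.51% of all descriptions had every organ above every seed stage and 7.31% the reverse. None of the 8 had an unadjusted p under 0.05, and the smallest adjusted p over all 1505 was 0.387.

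Some laccases had been given the GO term hydroquinone:oxygen oxidoreductase activity, the reaction of a laccase, and others had not. The term was carried by 5, 4, 4 and 8 laccases in the seed stages and 6, 20 and 9 in leaf, root and stem. Laccases without it numbered 5, 5, 3 and 8 in seeds and 4, 5 and 2 in organs. In root 80.0% of the laccases carried the term and in stem 81.8%, against 44.4 to 57.1% in the seed stages and 60% in leaf.

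**Figure D2:**
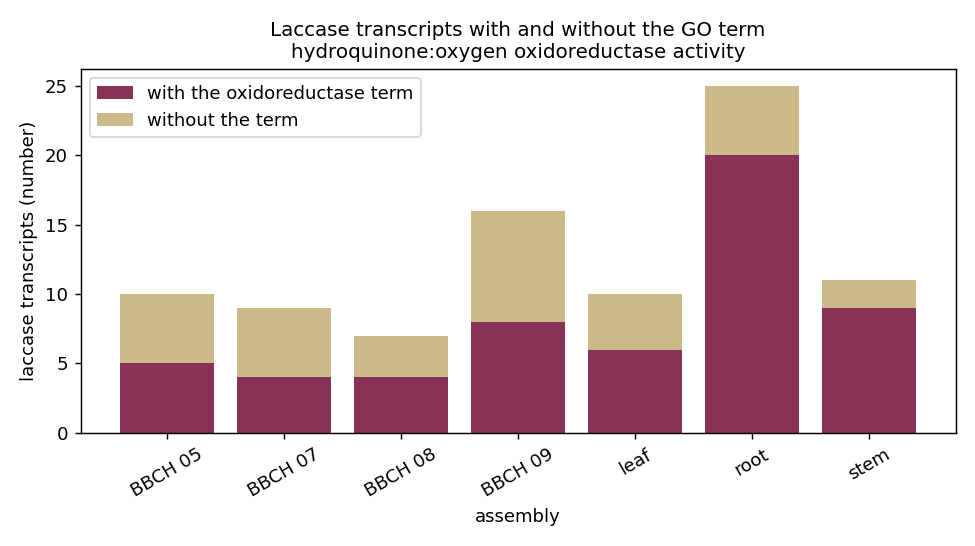
Stacked bars give the number of laccase transcripts (y axis) in each assembly (x axis), split by the GO term hydroquinone:oxygen oxidoreductase activity. The part with the term reached 20 in root and was 4 to 8 in the seed stages, while the part without it ran from 2 to 8.

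Counted over all transcripts with that term, which added 8 uncharacterized proteins to the 56 laccases, every organ had a higher share than every seed stage. The mean was 0.0408% in organs and 0.0148% in seeds, a ratio of 2.77 (exact permutation p = 0.0286). Adjusted over 3049 terms by the Benjamini-Hochberg method p was 0.440, and 4.92% of those terms had every organ above every seed stage. Leaving out any single assembly keeps such groups apart by construction, so it is no further test. The exact permutation p was then 0.10 without a seed stage and 0.0667 without an organ, the smallest that 20 and 15 splits allow. The term rests on the annotation as well as on the enzyme, since of the 28 laccase proteins 14 carried it on every transcript, 6 on some and 8 on none. Accessions whose second character is 8 mostly carried an animal GO term in these tables, and 21 of the 64 transcripts matched such an accession. Without them 3, 2, 2 and 6 transcripts remained in the seed stages and 6, 16 and 8 in leaf, root and stem, again higher in share in every organ (exact permutation p = 0.0286). Whether other faults of the annotation bear on the term was not tested. When distinct proteins were counted in place of transcripts the groups overlapped (exact permutation p = 0.0571).

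The laccases matched 28 proteins, more than any other family, and a single one was matched in all 7 assemblies. That was F2D0F4 of barley, with 1, 1, 2 and 1 transcripts in the seed stages and 2, 1 and 1 in leaf, root and stem. Its longest peptide, 617 amino acids in stem, was the longest laccase. M0V335, also of barley, was matched by 2 transcripts in each organ and by none in the seeds, and K3ZLD7 of foxtail millet showed the reverse, with 1, 2, 1 and 1 in the seed stages and 0 in the organs. W5F923 of wheat had 4 transcripts in root, 2 in stem and 1 at BBCH 09. M8C8G7 of *Aegilops tauschii* had 4 transcripts in both root and BBCH 09, 1 in each of the other seed stages and 0 in leaf and stem. M8AA34 of *Triticum urartu*, a laccase-10, was matched by 2 transcripts in leaf alone.

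**Figure D3:**
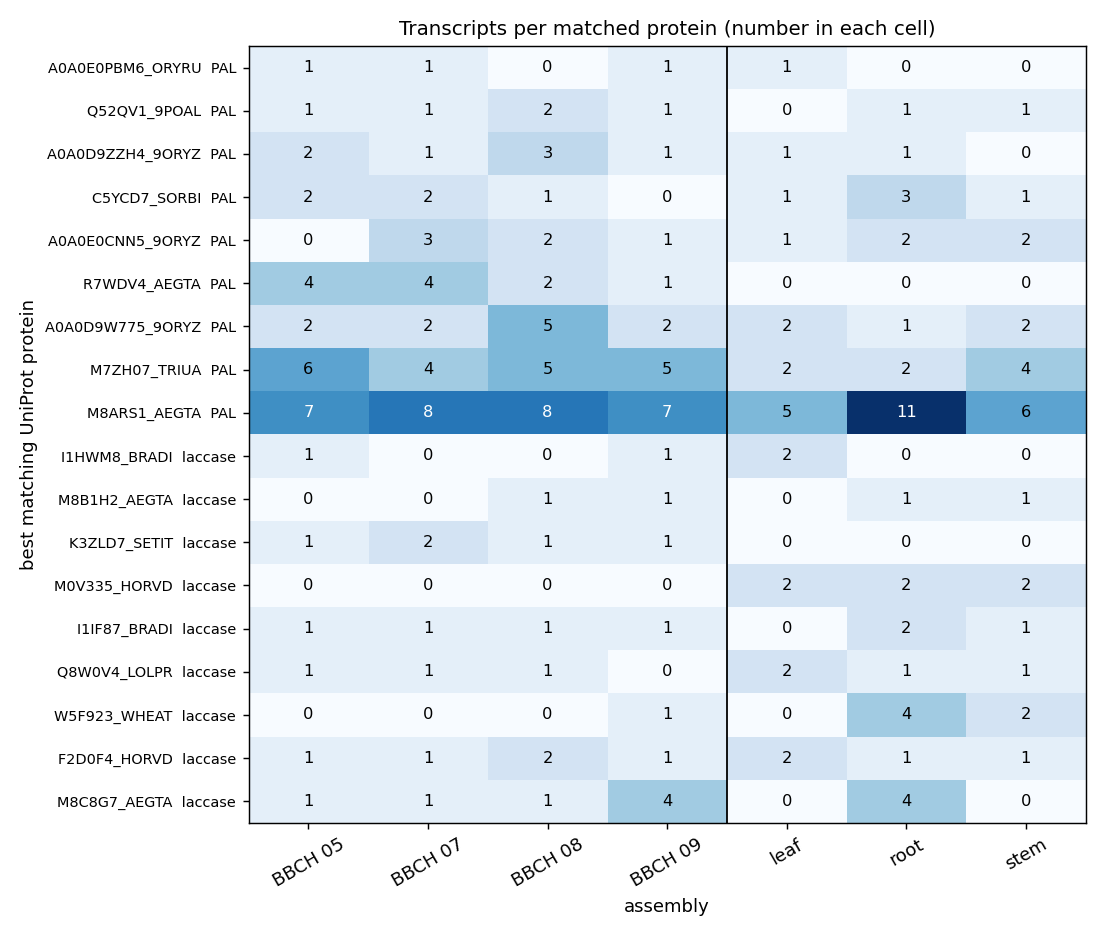
Cells give the number of transcripts whose best match was the protein on the y axis, in each assembly on the x axis, for phenylalanine ammonia-lyase (PAL) and laccase proteins with at least 4 transcripts. The black line parts seed stages from organs. M8ARS1 was matched in all assemblies with 5 to 11 transcripts, R7WDV4 and K3ZLD7 in seeds only, and M0V335 in organs only.

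Over all families, 72 proteins were matched, of which 9 (12.5%, 6.72 to 22.1%) were found in all 7 assemblies, against 15.8% of all 57115 proteins. Proteins found in seeds only numbered 20 (27.8%, background 30.7%) and those found in organs only 16 (22.2%, background 16.8%). All 4 seed stages and no organ matched 3 of the 72 (4.17%, 1.43 to 11.5%), against 1.34% of all proteins. All 3 organs and no seed stage matched 1 (1.39%, 0.246 to 7.46%), against 0.564%. Laccases gave 10 of the 16 found in organs only, and 6 laccase proteins (21.4%, 10.2 to 39.5%) were matched in root alone, where the background was 6.80%. No other family had a protein matched in root alone, so over all members this was 6 of the 72 (8.33%, 3.88 to 17.0%). Each of the 6 rested on 1 transcript. The combined assembly matched 59 member proteins, of which 9 were new, and 22 of the 72 were not matched there. Of the 11 transcripts with new proteins 9 were laccases, among them 4 described as laccase-15, a name that no single assembly held.

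The chalcone enzymes stand at the entry to the flavonoid branch, and their share of annotated transcripts overlapped between seeds and organs. They had 12, 10, 14 and 14 transcripts at BBCH 05, 07, 08 and 09, and 5, 10 and 5 in leaf, root and stem. The mean share was 0.0322% in seeds and 0.0202% in organs (exact permutation p = 0.0857), and the groups overlapped, since BBCH 07 at 0.0250% lay below root at 0.0258%. Leaving out either of these removes the overlap by construction (exact permutation p = 0.10 without BBCH 07 and 0.0667 without root, the smallest that 20 and 15 splits allow), and the groups overlapped with any other assembly left out. Every seed stage lay above every organ when distinct proteins were counted, and also when all transcripts, annotated or not, were the denominator (exact permutation p = 0.0571 for each). The family held unlike enzymes. Chalcone-flavonone isomerase descriptions, for the enzyme that closes the ring of chalcones, had 32 transcripts with 6 more named as fragments, chalcone synthase had 6, and 26 were described as NAD(P)H-dependent 6'-deoxychalcone synthase, an aldo-keto reductase that works beside chalcone synthase in legumes. The reductase had 5, 5, 6 and 4 transcripts in seeds against 1, 4 and 1 in organs (exact permutation p = 0.0857, adjusted p = 0.453).

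Transcripts with the term chalcone isomerase activity, 30 in all with 8 uncharacterized proteins among them, had a higher share in every seed stage than in any organ. They numbered 6, 5, 6 and 7 at BBCH 05, 07, 08 and 09, and 1, 3 and 2 in leaf, root and stem. The mean share was 0.0155% in seeds and 0.00603% in organs (exact permutation p = 0.0286, adjusted p = 0.440 over 3049 terms, of which 4.33% had every seed stage above every organ). None of the 30 matched an accession with 8 as its second character. The description chalcone-flavonone isomerase family did not show this separation, with 5, 4, 5 and 8 transcripts in seeds and 4, 3 and 3 in organs (exact permutation p = 0.314, adjusted p = 0.695). The protein M7ZT06 of *Triticum urartu* had the most transcripts of the family, 2, 2, 3 and 5 in seeds and 1 in each organ. Among peptides of at least 200 amino acids the groups overlapped (exact permutation p = 0.20).

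Other lists of the pathway gave a background for these counts. The later flavonoid branch, with names such as dihydroflavonol reductase and anthocyanidin reductase, had a share of 0.161 to 0.165% in the seed stages and 0.123 to 0.147% in the organs (exact permutation p = 0.0286, not adjusted). Of its 11 descriptions with at least 10 transcripts, 1 had every seed stage above every organ and 1 the reverse, against 7.31 and 5.51% of all descriptions. The former was naringenin,2-oxoglutarate 3-dioxygenase, which turns flavanones into dihydroflavonols, with 5, 4, 5 and 4 transcripts in seeds and 2, 3 and 1 in organs. The latter was anthocyanidin 3-O-glucosyltransferase 1, with 3 transcripts in every seed stage and 3, 4 and 3 in leaf, root and stem. By GO term the branch did not separate the groups. The term flavonoid biosynthetic process was on 412 transcripts, with a mean share of 0.174% in seeds and 0.145% in organs (exact permutation p = 0.229, adjusted p = 0.724). Trans-cinnamate 4-monooxygenase, the enzyme between phenylalanine ammonia-lyase and 4-coumarate ligase, had 3, 3, 4 and 2 transcripts in seeds and 2, 1 and 4 in organs. Lists for the supply of aromatic amino acids, lignan relatives and hydroxycinnamoyl conjugation overlapped between the groups, and secondary wall cellulose synthases were at 0 in every assembly by the names searched. The list of lignan relatives held isoflavone reductase descriptions only, and the flavonoid list also took these in through the word flavone.

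The members were assembled in shorter pieces in seeds than in organs. Their median peptide length was 147, 153, 156 and 158.5 amino acids at BBCH 05, 07, 08 and 09, against 205, 205 and 194 in leaf, root and stem. The medians of all annotated peptides were 200, 175, 183 and 188 in seeds and 194, 201 and 232 in organs, and did overlap. Peptides of at least 200 amino acids made up 23.8, 25.4, 34.3 and 29.4% of the members in the seed stages and 51.2, 50.7 and 50.0% in leaf, root and stem. Among all annotated transcripts that share ran from 42.4% at BBCH 07 to 57.6% in stem. The study had difficulty getting RNA of high quality from germinated seeds, and the part of RNA quality in these lengths was not tested.

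The difference in length was wide in some families and small in others. Long peptides made up 28.0% of 50 chalcone enzymes in seeds and 70.0% of 20 in organs, 10.7% of 28 cinnamyl alcohol dehydrogenases against 39.1% of 23, and 28.6% of 98 phenylalanine ammonia-lyases against 44.2% of 52. For laccases it was 47.6% of 42 against 56.5% of 46. Of 7 member descriptions with at least 10 transcripts and 1 or more in every assembly, 1, chalcone-flavonone isomerase family, had a higher percentage of long peptides in every organ than in every seed stage, where 7.05% of all such descriptions did and 1.36% showed the reverse.

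**Figure D4:**
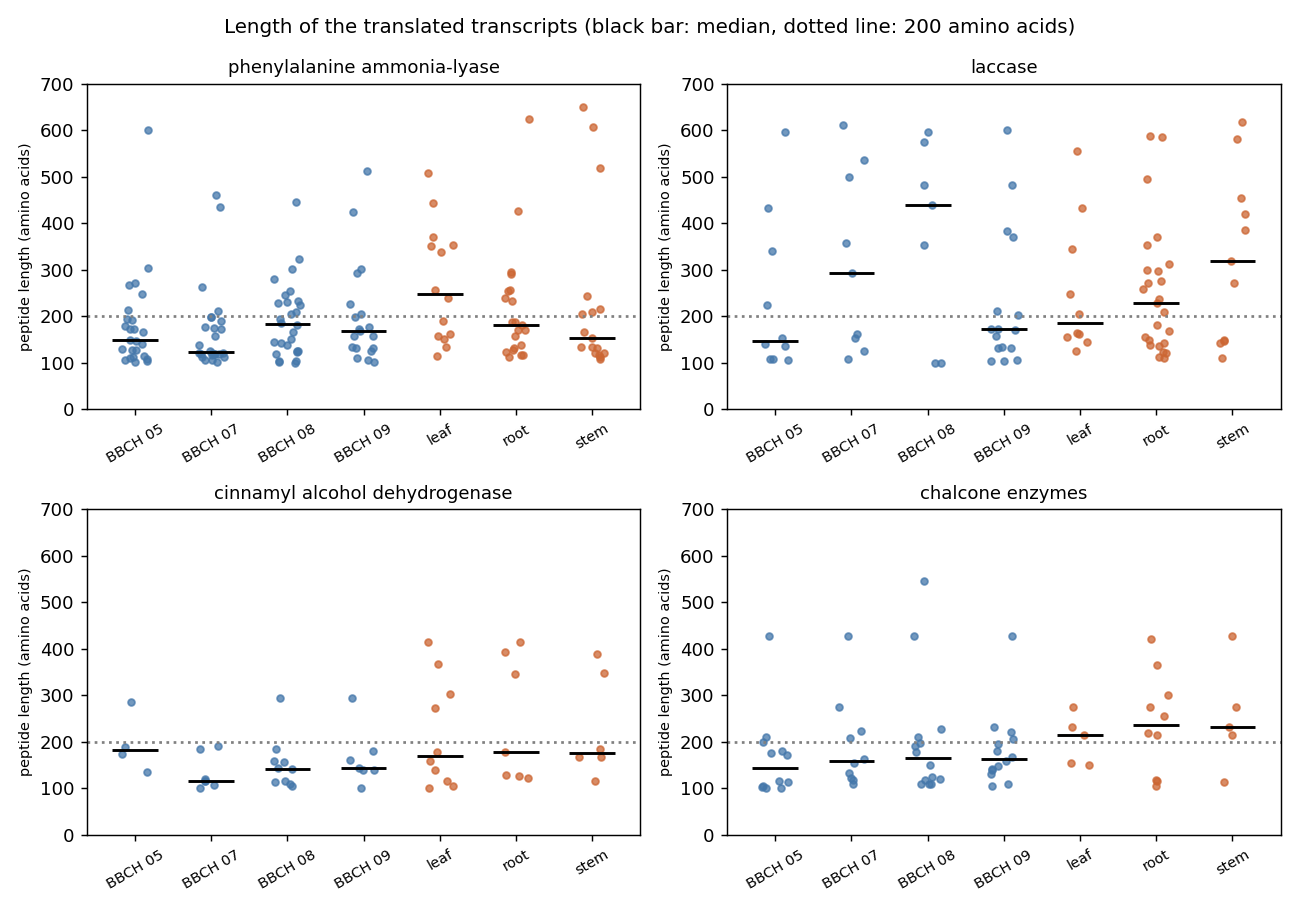
Points are single transcripts of 4 families, with the length of the translated peptide in amino acids (y axis) by assembly (x axis). Blue marks seed stages and orange organs, black bars are medians and the dotted line is at 200 amino acids. Cinnamyl alcohol dehydrogenases past that line numbered 0 or 1 in each seed stage and 4, 3 and 2 in leaf, root and stem.

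The comparison of seeds with organs came out otherwise when long peptides alone were counted. Long laccases numbered 4, 5, 5 and 6 in seeds and 5, 14 and 7 in organs, and their share among long peptides was higher in every organ (0.0498 against 0.0279% on average, exact permutation p = 0.0286). Long cinnamyl alcohol dehydrogenases numbered 1, 0, 1 and 1 in seeds and 4, 3 and 2 in organs, again higher in every organ (0.0187 against 0.00412%, exact permutation p = 0.0286). Of 3 member descriptions with at least 10 long peptides, "laccase" and "chalcone-flavonone isomerase family" had every organ above every seed stage, each with an adjusted p of 0.350, against 6.37% of 612 descriptions and 5.56% with the reverse. The part of fragmentation in the seed and organ differences was not tested.

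In the single assemblies the longest peptides were 650 amino acids for phenylalanine ammonia-lyase, in stem, 547 for a chalcone enzyme, at BBCH 08, and 414 for cinnamyl alcohol dehydrogenase, in leaf and root. For 4-coumarate ligase the longest was 277, for caffeoyl O-methyltransferase 269 and for cytochrome P450 98A1 184. The combined assembly held longer ones of 4-coumarate ligase (290) and cytochrome P450 98A1 (224). The 150 phenylalanine ammonia-lyase transcripts came from 88 graph components of the assembler, counted within each assembly, and the 51 cinnamyl alcohol dehydrogenases from 31, so that several members of a family often shared a component. The 88 laccases came from 73.

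The members were matched more closely than the transcriptome at large. Their median similarity to the best homologue was 93%, against 86% for all annotated transcripts, and 99.3% of them had an e-value of at most 1e-10, against 94.8%. Phenylalanine ammonia-lyase had a median of 96% and the laccases 88%. An enzyme code was attached to 56.4% of the members and to 13.7% of all annotated transcripts. The rule asks for an enzyme name, and 63.3% of all annotated transcripts were described as uncharacterized proteins. A difference in enzyme codes is therefore built into the rule. The best homologue was a protein of *Aegilops tauschii* for 39.3% of the members, against 14.5% of all annotated transcripts, and of *Triticum urartu* for 23.9% against 12.1%. Barley proteins were the best match for 3.86% of members and 12.97% of all. How far these differences rest on which species have named entries was not tested. At the limit of the rule, the member just inside was a laccase fragment at BBCH 05 with an e-value of 0.084 and 43% similarity, and the nearest match outside in a single assembly was a laccase at BBCH 08 with an e-value of 0.300 and 50% similarity.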

How the data were processed

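The authors trimmed reads with Trimmomatic and normalised them by k-mers. Trinity assemblies were made per library and for all reads together, reduced to 1 isoform per gene and to contigs unlike each other, and translated. Best homologues came from blastp against plant UniProtKB, and GO terms and enzyme codes from Blast2GO. Of the deposited columns, the e-value is a score, the mean similarity is a percent and the length counts amino acids. Members and lists were chosen with earlier results of these data known. All 8 tables were used and 0 columns were without a sample. Families, every description with at least 10 transcripts, proteins matched in all 7 assemblies (up to 3 a family), proteins of 1 assembly with at least 2 transcripts, longest peptides and the pathway lists were named by rule, and other proteins after their values were seen. Shares have 95% Wilson intervals, and a count of 0 was taken to allow 3 counts. Seeds and organs were compared by exact permutation over 35 splits, two-sided, with Benjamini-Hochberg adjustment over all descriptions or terms, in Python 3.11.15 with NumPy 2.4.6 and SciPy 1.17.1, tested on simulated data. A p-value is the part of the splits with a mean difference at least as large as the one seen. The seed stages are not replicates of each other, nor are the organs. With 1 pooled library per condition, p-values therefore speak of these 7 assemblies only. Alternatives were stricter e-value limits (1e-05 and 1e-10), distinct proteins, peptides of at least 200 amino acids, other denominators, other word lists and leaving out each assembly. The summed peptide length at BBCH 05 differed from the total the study lists, for a reason not known. No sequences were used here.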

Additional observations from a re-analysis of the deposited data

Results flagged for a closer look

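Data outside the members held further transcripts with names or terms of the pathway. In the 7 single assemblies 20 transcripts carried the words of the rule with an e-value above 0.1, 7 of them in root, and the weakest matches in the single assemblies reached an e-value of 7.5. Their similarity was 37 to 62%, so such matches do not establish that these 20 belong to the pathway. The description "cinnamoyl- reductase" was found on 11 transcripts, 2, 1, 0 and 2 at BBCH 05, 07, 08 and 09 and 2 in each organ. The laccase activity term was found on 8 transcripts of uncharacterized proteins, 1, 0, 0 and 1 in the seed stages and 2 in each organ. None of these entered the counts of the families.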

How the results depend on the processing

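Counting distinct proteins lowered the share of members to 0.122% at BBCH 08 and 0.138% in root, outside the intervals of the transcript counts. Counting peptides of at least 200 amino acids lowered it to 0.0827, 0.0945, 0.132 and 0.104% at BBCH 05, 07, 08 and 09, again outside them. In leaf, root and stem the share among such peptides was 0.152, 0.179 and 0.131%, inside the intervals of the transcript counts. The number of families whose seed stages and organs did not overlap was 2, and 2 to 4 when single assemblies were left out, with 4 without BBCH 09. For member descriptions it was 0 of 8, against 12.8% of all descriptions, and 2 of 14 at a minimum of 5 transcripts, against 10.7%. When single assemblies were left out it was 0 to 3 of 8, against 18.6 to 27.4% of all descriptions. The 3 came without BBCH 09, where 19.8% of all descriptions did not overlap. Leaving out an assembly cannot add overlap to a family or a member description, so these numbers could only stay or rise. Proteins matched in all 7 assemblies fell from 12.5% to 2.22% among long peptides, and descriptions in place of proteins gave 30.8%. The organ minus seed share changed sign for caffeic acid O-methyltransferase, which was near 0, at an e-value limit of 1e-05 (2.85e-07 percentage points), with distinct proteins (0.00107), long peptides (0.00221) and assembled amino acids (0.000177), and ran from -0.000913 to 0.000823 when single assemblies were left out. It also changed sign for phenylalanine ammonia-lyase with distinct proteins (0.000894) and long peptides (0.00759), and for the chalcone enzymes with long peptides (0.00748). The cause was not tested. Assembled amino acids, the laccases by term, the words near the rule and all alternatives for single GO terms were added after seeing the data. No paired analysis was possible because each condition had 1 library. Small counts limit all families but the 4 largest.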

Other observations

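A GO term that names no plant process, "regulation of bone mineralization", was attached to 121 of the 415 members (29.2%, Wilson interval 25.0 to 33.7%). It covered all 52 transcripts matched to the phenylalanine ammonia-lyase M8ARS1 and none of the other members of that family, 21 of 51 cinnamyl alcohol dehydrogenases and 31 of 88 laccases. The term went with the accession of the matched protein. Of 127 members matched to an accession whose second character is 8, 121 (95.3%) carried it, and 0 of the other 288 did. Outside the members it was 28286 of 33826 (83.6%) and 0 of 217551. This split was noticed after the values were seen, and the term was left out of every comparison.

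None of the 415 members carried the term "lignin biosynthetic process". It was attached to 24 other transcripts, 21 of uncharacterized proteins and 3 of cellulose synthase, with a mean share of 0.0103% in seeds and 0.00866% in organs (exact permutation p = 0.486). The opposite term, "lignin catabolic process", was attached to 56 members, all of them laccases.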
